A study of Homo sapiens with 47 samples.

Results

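Of the 37 circulating tumor cells (CTCs) with deposited values, 24 were compared here, chosen by their normalized count of HBB: the 12 CTCs with the highest and the 12 CTCs with the lowest value. HBB (ENSG00000244734, chromosome 11) encodes the beta chain of adult hemoglobin. The 13 CTCs between them form a middle class. The cells are single MDA-MB-231-LM2 cells (LM2, a lung-tropic derivative of a human triple-negative breast cancer cell line, labeled with GFP) recovered from the blood of 5 NSG mice that carried an LM2 tumor in the mammary fat pad. Blood was enriched for CTCs by size on a Parsortix device, CD45 staining served as negative selection, and GFP-positive cells were picked singly for SMARTseq2, a full-length single-cell RNA sequencing protocol. A further 6 LM2 cells came from culture. All cells descend from 1 cell line, and NSG mice lack mature lymphocytes but keep neutrophils, monocytes and red cells. The labels name no batch that sets libraries apart. The 4 CTCs that the study left out of its table were not analysed here.

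Red cells develop from erythroblasts, which fill with hemoglobin, a tetramer of alpha-type and beta-type globin chains that each hold a heme. The alpha-type genes (HBA1, HBA2) and the beta-type genes (HBB, HBD and the fetal and embryonic HBG and HBE1) lie in separate clusters. Heme in erythroid cells is made through ALAS2, the erythroid form of the first enzyme of the pathway, and free alpha chains are held by the chaperone AHSP, whereas LM2 cells are of epithelial tumor origin and are not expected to make any of these from their lineage.

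The normalized count of HBB, that is its reads over the DESeq2 size factor of that library, in the high class ranged from 1940.1 to 12138 with a median of 2791. In the low class it ranged from 0 to 196 with a median of 9.69. Because these values chose the classes, they are a description and were not tested. The last CTC inside the high class stood at 1940.1 and the first outside at 1906, and at the other end the last inside stood at 196 and the first outside at 198, so neither border falls in a gap. HBB was read in 35 of the 37 CTCs but in 0 of the 6 cultured LM2 cells, in which 3 reads would have been a share of 0.000253% to 0.000386% of all reads on genes. In CTC 5549-6, the CTC with the most HBB, the gene took 7289 reads, or 1.24% of all reads on genes. Such floors and shares cover counting error only, because reads of this protocol carry no molecular identifiers.

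HBB followed the mouse of origin. The median HBB was 9.69 over the 10 CTCs of mouse 5545 and 78.3 over the 2 CTCs of mouse 5541, against 1615 over the 17 CTCs of mouse 5546, 1923 over the 4 of mouse 5542 and 969 over the 4 of mouse 5549. Between-mouse differences made up 63.5% of the sum of squares of log2(HBB + 1). As a consequence, 8 of the 12 low CTCs came from mouse 5545 and 8 of the 12 high CTCs from mouse 5546. Mouse 5541 gave 2 low CTCs and no other, and mouse 5542 gave 2 high and 2 middle CTCs. Only mice 5545, 5546 and 5549 held CTCs of both classes, and in each of them 1 class was a single CTC: 1 high against 8 low in 5545, 8 high against 1 low in 5546, and 1 against 1 in 5549. Within mouse 5546 the libraries with the letter c in their name (median 1417) and those with the letter s (median 2036) overlapped in HBB, and each gave 4 high CTCs. The single low CTC of this mouse was a c library with 9305 genes detected, whereas its 4 high s libraries had 4656 to 6482, so HBB class, library letter and genes detected cannot be told apart in that contrast.

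**Figure D1:**
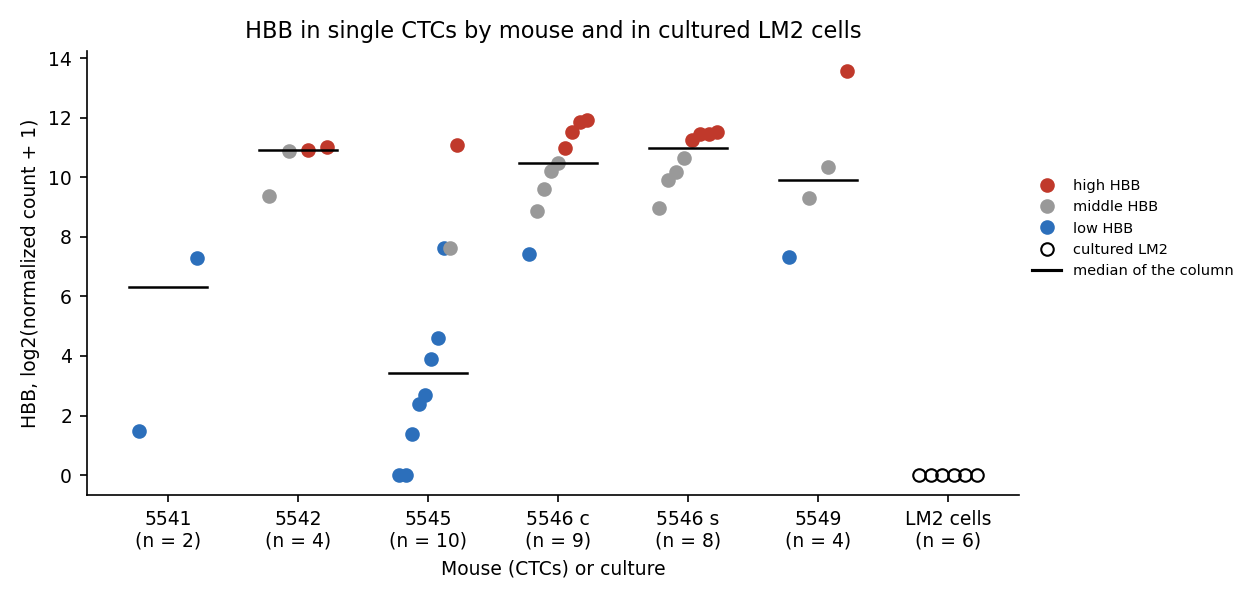
HBB of every cell as log2(normalized count + 1), by mouse (mouse 5546 split by the letter in the library name) and in cultured LM2 cells; each point is 1 cell, colored by HBB class, and lines are medians. Mouse 5545 holds 8 of the 12 low CTCs, mouse 5546 holds 8 of the 12 high CTCs, and all 6 cultured cells are at 0.

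The differences below were therefore fitted within mice, by limma on the mean log2(normalized count + 1) of each mouse and class with the mouse as a term. The fit covered 10549 genes read in at least 10 CTCs. Class medians, ranges and their overlap, and counts of CTCs with reads pool the mice. So do correlations with HBB that are not given within a mouse. These pooled values are not adjusted for the mouse, which HBB followed. Differences are high minus low on this log2 scale with their standard errors (SE), and they understate the change of genes at low values. With Benjamini-Hochberg adjustment at 0.05, 1 gene was higher with high HBB (0.00948% of the genes tested) and 0 were lower (0%), while 154 and 431 genes had an unadjusted p under 0.05 in those directions. Genes were therefore also counted by size: a difference of at least 1 on the log2 scale with the same sign in all 3 mice. Of the genes tested, 685 (6.49%) were higher and 1874 (17.8%) lower with the same sign in all 3 mice. The size rule held for 474 genes higher (4.49%) and 1269 genes lower (12%) with high HBB, and these shares are the background for each gene list below. When the CTCs were instead ranked within each mouse (10 high against 10 low CTCs of 4 mice), 295 genes were higher (2.8%) and 421 lower (3.99%), and 127 genes (1.2%) and 228 genes (2.16%) met the rule under both rankings. The median difference over all genes tested was -0.16, and it was -0.03 with the ranking within mice.

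The called gene was HBD, which encodes the minor delta chain of adult hemoglobin and is a near copy of HBB beside it on chromosome 11. Its normalized count was 472 to 3049 (median 787) in the high class, 56.2 to 520 (median 268) in the middle class and 0 to 52.3 (median 2.95) in the low class, with no overlap between high and low. The difference was 5.61 (SE 0.93, limma adjusted p = 0.0227), and it was positive in each mouse (7.42 in 5545, 4.18 in 5546 and 6.15 in 5549). In the 29 CTCs with at least 100 HBB reads, HBD reads were 26.1% ± 3.38 (SD) of HBB reads, between 20.7% and 35.2%. Only 4 of these CTCs were of the low class. Reads of such near copies could be split between the 2 genes by the counting, so HBD is uncertain as a gene of its own and is no measure independent of HBB. It was called in 9 of 23 alternative settings, with differences between 3.27 and 7.27 and adjusted p between 8.49e-07 and 0.9999; without mouse 5545, 5546 or 5549 no gene was called.

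HBA2, an alpha-type globin gene on chromosome 16, is measured apart from the HBB locus and is close in sequence to HBA1, for which no row was used here. Its normalized count was 6.90 to 79.9 (median 20.9) in the high class, where all 12 CTCs had reads. It was 0 to 3.38 in the low class, where 6 of 12 had reads, and 0 in all 6 cultured cells. The classes did not overlap, and the middle class lay between them with a median of 6.04. The difference was 3.33 (SE 1.26) and did not pass limma's test (adjusted p = 0.877). Per kilobase of exon, the median level in the high class was 2140 for HBB, 683 for HBD and 25.3 for HBA2. Only uniquely mapped reads were kept, so reads that fit both HBA1 and HBA2 could be lost. These levels therefore do not compare the output of beta-type and alpha-type genes. The fetal gene HBG2 was read in 3 high, 2 middle and 1 low CTC at up to 1.06, HBE1 in 1 high CTC, and HBQ1 in 3 high CTCs.

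**Figure D2:**
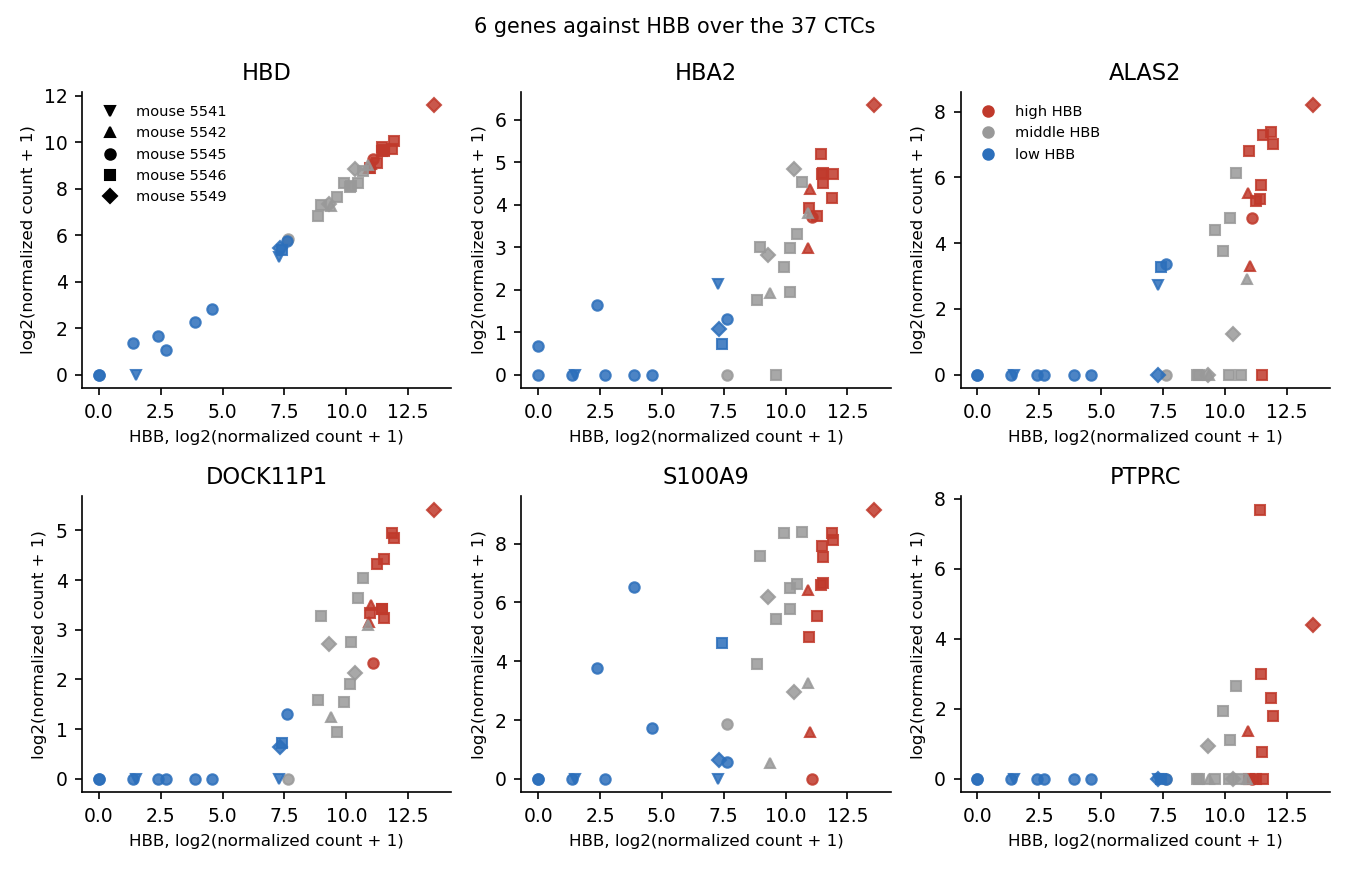
6 genes against HBB over the 37 CTCs, both axes as log2(normalized count + 1); each point is 1 CTC, its color the HBB class and its shape the mouse. HBD lies close to a line, HBA2 and DOCK11P1 separate the high from the low class without overlap, and the ALAS2, S100A9 and PTPRC panels hold high CTCs at or near 0.

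Outside the globins, erythroid genes were mostly unread. ALAS2 had a median of 49.2 in the high class (0 to 291, read in 11 of 12 CTCs), 0 in the middle class (6 of 13) and 0 in the low class (0 to 9.29, 3 of 12), with no read in culture. Its difference was 3.89 (SE 1.31, limma adjusted p = 0.877), with 4.36 in mouse 5545, 2.32 in 5546 and 8.19 in 5549. AHSP was read in 5 high CTCs and in no middle or low CTC, and SLC4A1, the anion exchanger of the red cell membrane, in 2 high CTCs only. FECH, the last enzyme of heme synthesis, was read in 5 high, 4 middle and 0 low CTCs, but also in 4 of 6 cultured cells. The remaining genes followed no such order. BPGM, which makes a ligand that lowers the oxygen affinity of hemoglobin, had a difference of 1.87 (SE 1.33) and BNIP3L, a mitophagy receptor, of -0.97 (SE 1.08). Of 22 erythroid genes other than globins with a row, 8 were tested. Of these 4 were higher and 4 lower, and ALAS2 met the size rule upward. Their median was 0.36, and it fell below 0 in 4 of the 23 alternative settings.

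Genes of the heme and iron handling of ordinary cells mostly had negative differences. Of 14 tested, 4 had a positive and 10 a negative difference, with 0 past the size rule upward and 5 downward and a median of -0.88. UROS and BLVRA, which make a heme precursor and break down biliverdin, differed by -2.65 (SE 1.17) and -2.43 (SE 1.34), and the ferric reductase STEAP3 by -2.20 (SE 1.41). None passed limma's test. The summed normalized count of the list did not follow, with medians of 5667 in the high, 3156 in the middle and 4952 in the low class. The median correlation of its genes with HBB was -0.03, against -0.04 for all genes tested. In 2 of the 23 alternative settings the list median was not below that of all genes tested. The ferritin chains stayed close: FTH1 had a median of 1615 in the high and 1768 in the low class, and FTL of 3148 and 2639.

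Genes of white blood cells were mixed, and none passed the test. S100A9, a subunit of the calprotectin complex of neutrophils, had a median of 97.1 in the high class (0 to 567.8, read in 11 of 12), 53.8 in the middle class (read in all 13) and 0.245 in the low class (0 to 91.6, 6 of 12), and it was unread in culture. The order over the classes did not hold in every mouse: the high CTC of mouse 5545 had no S100A9 read, and the difference there was -1.58, against 2.34 in mouse 5546 and 8.51 in mouse 5549. PGLYRP1, a peptidoglycan-binding protein of neutrophil granules, was read in 10 high, 7 middle and 2 low CTCs, and LTF, the granule protein lactoferrin, in 6, 7 and 1. Summed over the neutrophil list, reads were 0% to 0.0622% of a high CTC, 0% to 0.0164% of a low CTC and 0% of every cultured cell, and the highest share (0.0975%) was in a middle CTC. Of the 5 tested neutrophil genes 4 had a positive and 1 a negative difference, with a median of 0.98 and 0 genes past the size rule, and the granule genes CAMP and MPO were read in 1 low and 2 high CTCs.

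PTPRC, which encodes CD45, the antigen of the negative selection, was read in 7 high CTCs (up to 205), 4 middle CTCs, 0 low CTCs and 0 cultured cells. Its difference was 1.49 (SE 0.60, limma adjusted p = 0.877), and it was 0 in mouse 5545, where both classes were unread. FCER1G and TYROBP, signaling adaptors of myeloid cells, were read in 9 and 8 high, 7 and 10 middle, and 2 and 3 low CTCs. LAPTM5 went the other way, with a median of 12.2 in the high and 82.5 in the low class and a difference of -2.11 (SE 1.13). It was read in all 6 cultured cells. Over the 12 tested leukocyte genes, 9 differences were positive and 3 negative, 0 and 1 met the size rule, and the median was 0.75. The B cell genes CD79A and MS4A1 were read in 1 CTC each. Of 12 platelet genes with a row, 1 (ITGB3) had enough reads to be tested, with a difference of -1.21 (SE 1.24). The part of other blood cells in these libraries was not tested.

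The genes closest to HBB over the 37 CTCs were ranked by Spearman correlation, given without a p because the CTCs share mice and libraries. HBD was the closest (0.99), followed by DOCK11P1 (0.92), HBA2 (0.89), NOXA1 (0.88) and MAT1A (0.83). Of all genes tested, 4 (0.0379%) had ranges that did not overlap between high and low CTCs, namely HBD, HBA2, DOCK11P1 and NOXA1, all higher in the high class, and 0 (0%) were lower without overlap. DOCK11P1, a processed pseudogene of a guanine nucleotide exchange factor, was 4.01 to 41.6 in the high class and 0 to 1.47 in the low class, and unread in culture. NOXA1, an activating subunit of NADPH oxidase, was 5.62 to 83.3 against 0 to 1.81, and it was read in 5 of 6 cultured cells with a median of 2.18. MAT1A, the liver form of methionine adenosyltransferase, had medians of 5.45 and 0. Within mouse 5546 the correlations of these 3 genes were 0.76 to 0.81, and that of HBA2 was 0.85. Within mouse 5545 HBA2 had a correlation of 0.25, and the 3 genes shared a value of 0.62 because each was read in the same 2 of 10 CTCs. Over the 13 middle CTCs alone, the correlations with HBB were 0.93 for HBD, 0.73 for HBA2, 0.61 for DOCK11P1, 0.57 for NOXA1, 0.53 for MAT1A, 0.52 for ALAS2 and 0.26 for S100A9. These CTCs are among the 37 whose correlations ranked the genes, and they entered the limma fit, so they are no independent check.

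Pseudogenes were prominent among the genes that ran with HBB. A correlation over 0.6, a threshold chosen after the values were seen, was reached by 70 genes, and 42 of them (60%) were annotated pseudogenes, against 8.73% of all genes tested. Of the 21 ferritin pseudogenes tested 12 were among the 70, for example FTLP16 (difference 2.95, SE 1.27) and FTH1P5 (2.48, SE 1.31), although FTH1 and FTL themselves had correlations with HBB of -0.15 and 0.06. Ribosomal protein pseudogenes gave 10 of 298. No read in any cultured LM2 cell was found for 55 of the 70 genes (78.6%), against 4.28% of all genes tested. The 17 protein-coding genes among the 70 included HBD, HBA2, ALAS2, S100A9, PGLYRP1, FCER1G and the acute-phase gene SAA1. The median correlation of the 70 genes was 0.54 within mouse 5546, 0.53 within mouse 5545 (54 genes with reads there) and 0.29 over the 13 middle CTCs. The values were made by alignment to the human genome alone, so human and mouse transcripts cannot be told apart in them, and pseudogenes with near-identical parents are uncertain.

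The share of reads on all annotated pseudogenes, a measure added after the values were seen, was 0.340% to 1.57% (median 0.676%) in the high class and 0.267% to 0.552% (median 0.340%) in the low class, and 0.264% to 0.307% in culture, and its highest value (2.02%) was in a middle CTC. It was higher in the high class by 0.0231 points in mouse 5545, 0.502 in mouse 5546 and 0.751 in mouse 5549. The correlation with HBB was 0.63 over 37 CTCs, 0.67 within mouse 5545, 0.75 in the c libraries of mouse 5546, 0.12 in its s libraries and 0.10 over the middle CTCs, so it did not hold in each subset.

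Genes detected and depth overlapped between the classes, and both were lower in the high class in each of the 3 mice. The high CTCs had 4656 to 12299 genes detected (median 6923) and the low CTCs 2313 to 10153 (median 7834), and the mean difference over the 3 mice was -1661 ± 1672 (SD, n = 3, exact two-sided permutation p = 0.25, the smallest that 3 mice allow). By mouse the difference was -169 in 5545, -1346 in 5546 and -3468 in 5549. The correlation of genes detected with HBB was -0.12 over 37 CTCs, but 0.32 in the c libraries and -0.71 in the s libraries of mouse 5546. Reads on genes ranged from 588141 to 1748980 in the high class and from 469614 to 1890720 in the low class, and the differences by mouse were -82977, -725087 and -614479 in the same order. The part of depth and genes detected in the gene differences was not tested. The mitochondrial share was 4.59% to 23.9% (median 6.52%) with high and 5.21% to 9.002% (median 7.13%) with low HBB, but within mice it was higher in the high class, by 1.03 points ± 0.579 (SD, n = 3; 0.431, 1.59 and 1.07 by mouse). The ribosomal protein share had medians of 10.3% and 11.4%, and the one low value of genes detected, 2313, came with a ribosomal share of 27.7% in the same CTC (5545-6), without which HBD was still called. Of the 10 measures none had an adjusted p of the exact permutation test below 0.357, and 3 mice allow no unadjusted p below 0.25.

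**Figure D3:**
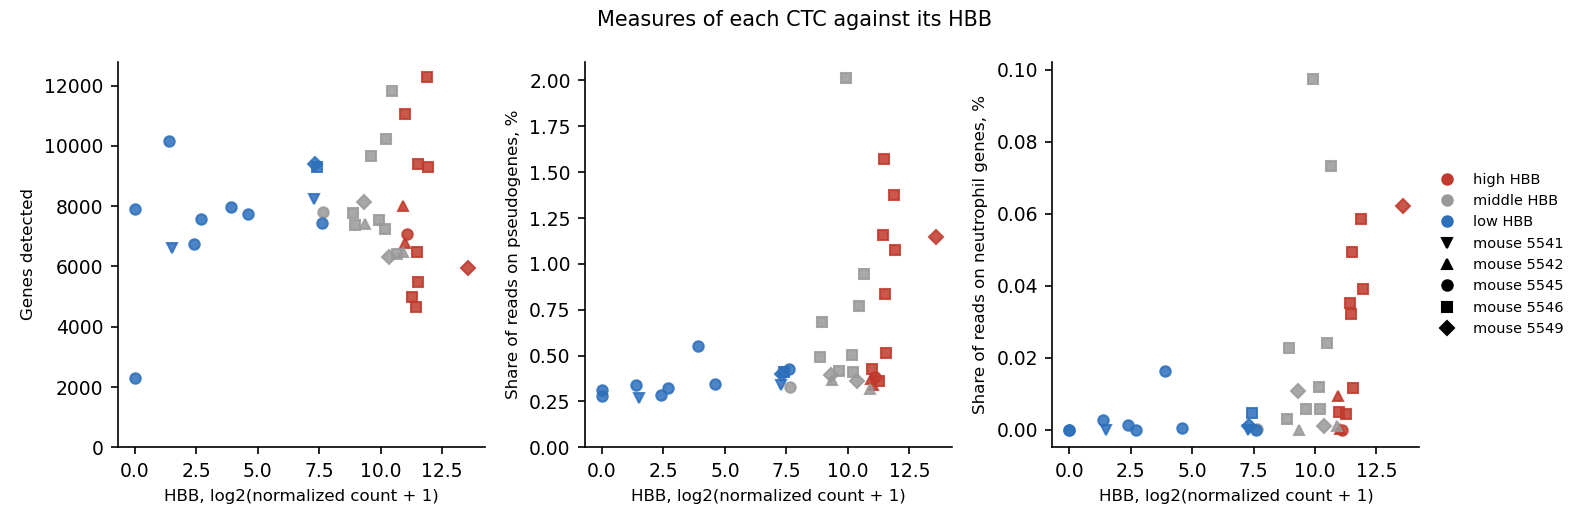
Genes detected, share of reads on pseudogenes and share of reads on neutrophil genes of each of the 37 CTCs against HBB as log2(normalized count + 1), with HBB class as color and mouse as shape. Genes detected overlap between classes, while the CTCs with over 1% of reads on pseudogenes or over 0.02% on neutrophil genes are all in the high and middle classes.

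Immediate early genes, transcribed within minutes of a stimulus, were the stress list with the highest median. Of 17 tested, 14 differences were positive and 3 negative, and 8 met the size rule upward and 1 downward (background 4.49% and 12%), with a median of 1.61. The median stayed positive in all 23 alternative settings (0.59 to 2.61). With the ranking within mice the median was 0.94 and 2 genes met the rule. The median correlation of the list's genes with HBB was 0.19 over 37 CTCs, but -0.08 within mouse 5545 and 0.07 within mouse 5546. KLF6, a zinc finger factor, had a difference of 3.55 (SE 0.81, unadjusted p = 1.75e-04, limma adjusted p = 0.815), with a median of 1041 in the high and 240 in the low class. Its ranges overlapped (37.7 to 5672 against 0 to 4713), its correlation with HBB was 0.21, it was called only in a fit without the middle class (4.09, adjusted p = 0.0153), and it turned negative with 9 against 9 CTCs. JUNB differed by 3.33 (SE 1.40) and EGR1 by 2.92 (SE 1.49). The EGR1 difference was 1.79 in mouse 5545, 3.11 in 5546 and 9.99 in 5549. The FOS family member FOSL1 differed by -3.11 (SE 1.06) and became positive (0.94) with the ranking within mice. Its pooled medians went the other way, at 439 in the high and 242 in the low class. By mouse the FOSL1 difference was -7.17 in 5545, where the single high CTC had no FOSL1 read, -1.83 in 5546 and -1.97 in 5549.

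Other genes past the size rule with the smallest p are shown in the plot of differences by mouse. Upward these were AREG, a ligand of the EGF receptor (4.03, SE 1.03), PHLDA1 (2.92, SE 0.82), the smooth muscle actin ACTG2 (4.25, SE 1.22), the scaffold AKAP12 (2.94, SE 0.96), the zinc finger gene ZMYM5, the pseudogene GPX1P2, the small GTPase GEM, the bZIP factor MAFG and STK40. The pooled medians did not always share this direction, since PHLDA1 had a median of 265 in the high and 462 in the low class and AKAP12 of 83.2 and 128. AREG had a median of 143 in the high class, 58.3 in the middle class and 46.6 in the low class, and its difference was 3.55 with the ranking within mice. Downward the smallest p fell to POLR1A, the large subunit of RNA polymerase I (-2.96, SE 0.71), CHIC1 (-2.85, SE 0.71), the tRNA methyltransferase METTL1 (-5.06, SE 1.30), the cohesion factor DSCC1 (-2.90, SE 0.75), FAM111A, the mitochondrial dehydrogenase ALDH6A1 (-4.47, SE 1.23), CHCHD6, the nuclear NAD synthase NMNAT1, FAM13A, TMCO6, the sialic acid transporter SLC35A1 and UFL1. Except for HBD, each had a limma adjusted p of 0.815 or 0.877. Most were read in few cells: METTL1 in 3 of 12 high and 8 of 12 low CTCs, ALDH6A1 in 3 and 11, and CHIC1 in 0 and 6. ALDH6A1 had a correlation with HBB of -0.58 over 37 CTCs, -0.70 within mouse 5545 and -0.71 within mouse 5546, but -0.16 over the middle CTCs.

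**Figure D4:**
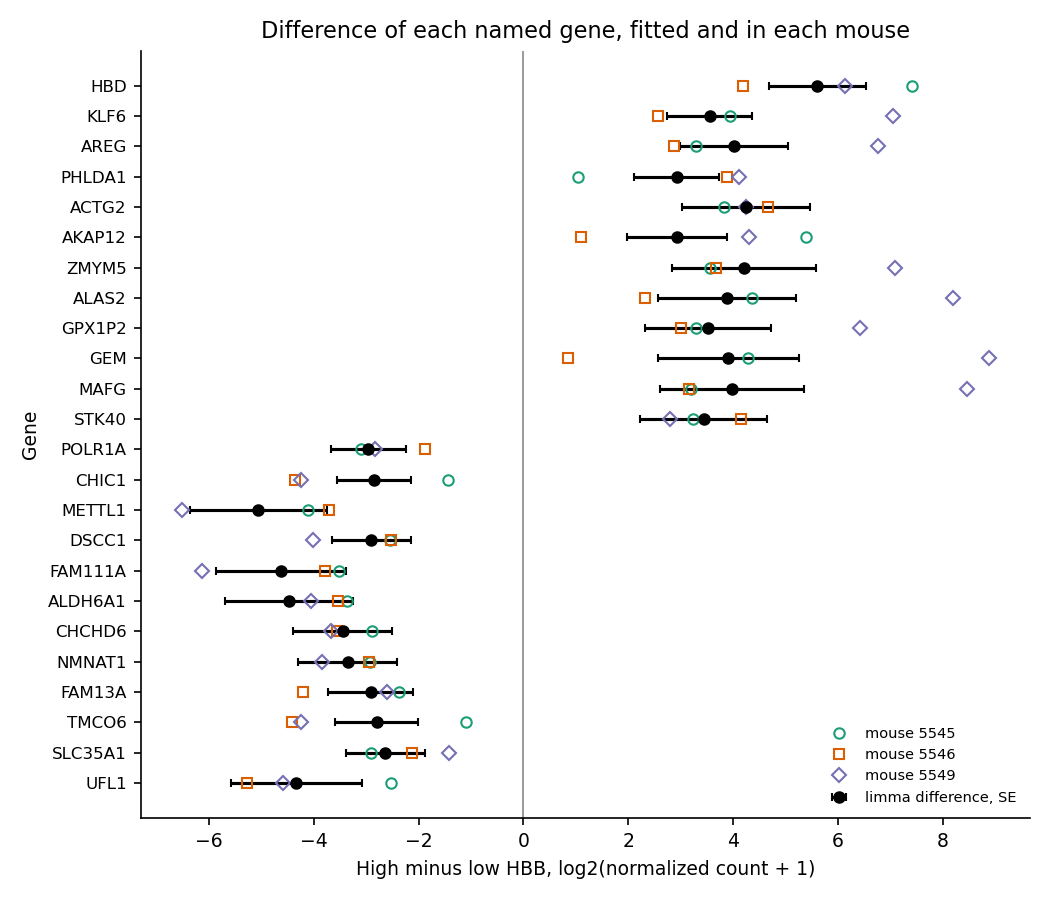
Difference between high and low HBB CTCs of the 12 genes higher and the 12 genes lower with the smallest p among those of one sign in 3 mice, on the log2(normalized count + 1) scale; filled points are limma differences with SE and open symbols are mice 5545, 5546 and 5549. All symbols of a gene lie on one side of 0 because this chose them, and HBD alone has an adjusted p under 0.05.

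The remaining stress lists had medians between -0.39 and 0.78, against -0.16 for all genes tested. Integrated stress response genes had 13 positive and 4 negative differences of 17 and a median of 0.78, with 1 gene past the size rule. TRIB3 (2.50, SE 1.52) and SESN2 (2.47, SE 1.55) were highest in mouse 5549 (9.74 and 10.78) and were negative in mouse 5545 (-1.29 and -0.64). Heat shock genes had 9 positive and 6 negative differences of 15 and a median of 0.26, which was -0.06 with reads scaled to the total of each CTC and -0.14 with CTCs thinned to the same depth, so their direction depended on the scaling. HSPA5 differed by 1.55 (SE 0.99) and the mitochondrial chaperonin HSPE1 by -1.27 (SE 0.99). Redox defence genes had 7 positive and 13 negative differences of 20 and a median of -0.39, with NFE2L2 at 2.48 (SE 1.24) and PRDX6 at -2.08 (SE 1.15). Hypoxia and glycolysis genes had a median of 0.06, with 10 of 19 positive, and it turned negative in 13 of the 23 alternative settings. Apoptosis and p53 genes had 9 of 16 positive and a median of 0.22, with CDKN1A at 2.16 (SE 0.97) and MCL1 at 1.91 (SE 1.22), but CDKN1A turned negative in the fit without the mouse term.

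Tumor identity genes had no common direction. VIM, the mesenchymal intermediate filament, was read in all CTCs of both classes with medians of 8305 and 7259, and its difference was 0.12 (SE 0.38). Of 25 tested mesenchymal and tumor genes 12 differences were positive and 13 negative, 2 met the size rule each way, and the median was -0.06. The urokinase gene PLAU differed by -1.72 (SE 0.72) with medians of 285 and 1024, and THBS1 by -1.76 (SE 1.28). CD44, named after its value was seen, had medians of 530 and 162 and a difference of 0.91 (SE 0.84), and its ranges overlapped. Among 6 tested epithelial genes 2 differences were positive and 4 negative, with KRT19 at -2.80 (SE 1.22) and KRT8 at 0.66 (SE 0.88). The 12 tested genes of the LM2 lung metastasis list had 9 positive and 3 negative differences and a median of 0.34, with 0 and 1 past the size rule. SPARC, a matrix protein of that list, differed by -2.91 (SE 1.34) and the chemokine CXCL1 by 2.58 (SE 1.51).

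Proliferation genes mostly had negative differences, and none passed the test. Genes detected and reads were also lower in the high class in all 3 mice. DNA replication genes had 2 positive and 17 negative differences of 19, a median of -1.71 and 9 past the size rule downward (background 12%). The summed normalized count of the replication list was nevertheless alike in its medians, at 902 in the high, 910 in the middle and 920 in the low class, and the median correlation of its genes with HBB was -0.01 within mouse 5545 and 0.04 within mouse 5546. CDC6 differed by -2.25 (SE 1.37) and RRM1 by -2.15 (SE 1.30). Mitosis genes had 3 positive and 16 negative differences of 19, a median of -1.14 and 7 past the rule. CDK1 had a median of 0.408 in the high class, 195 in the middle class and 63.4 in the low class, so its order did not follow HBB, and it turned positive with 9 against 9 CTCs. With the ranking within mice the list medians were -0.77 and -0.38, and 2 replication genes met the rule. Both list medians were positive (0.39 and 0.81) with 9 against 9 CTCs, where 1 mouse held both classes.

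Ribosomal protein genes had 11 positive and 72 negative differences of 83, 10 past the size rule downward (background 12%) and a median of -0.35, beside the ribosomal share of 27.7% in CTC 5545-6, a low CTC. Without that CTC the list median was no lower than the median of all genes tested. RPL39L differed by -3.77 (SE 1.24). The 13 mitochondrially encoded genes were divided 6 to 7 with a median of -0.20. MT-CO1, a subunit of cytochrome c oxidase, had a median of 1804 (684 to 13970) in the high class, 2102 in the middle class and 8237 (1975 to 15765) in the low class, and 10916 in culture. Its correlation with HBB was -0.60 over 37 CTCs, -0.56 within mouse 5545, -0.44 within mouse 5546 and -0.24 over the middle CTCs, while its fitted difference was -0.64 (SE 0.48). MT-CO2 and MT-CO3, subunits of the same enzyme, differed by 0.19 (SE 0.40) and 0.13 (SE 0.37).

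**Figure D5:**
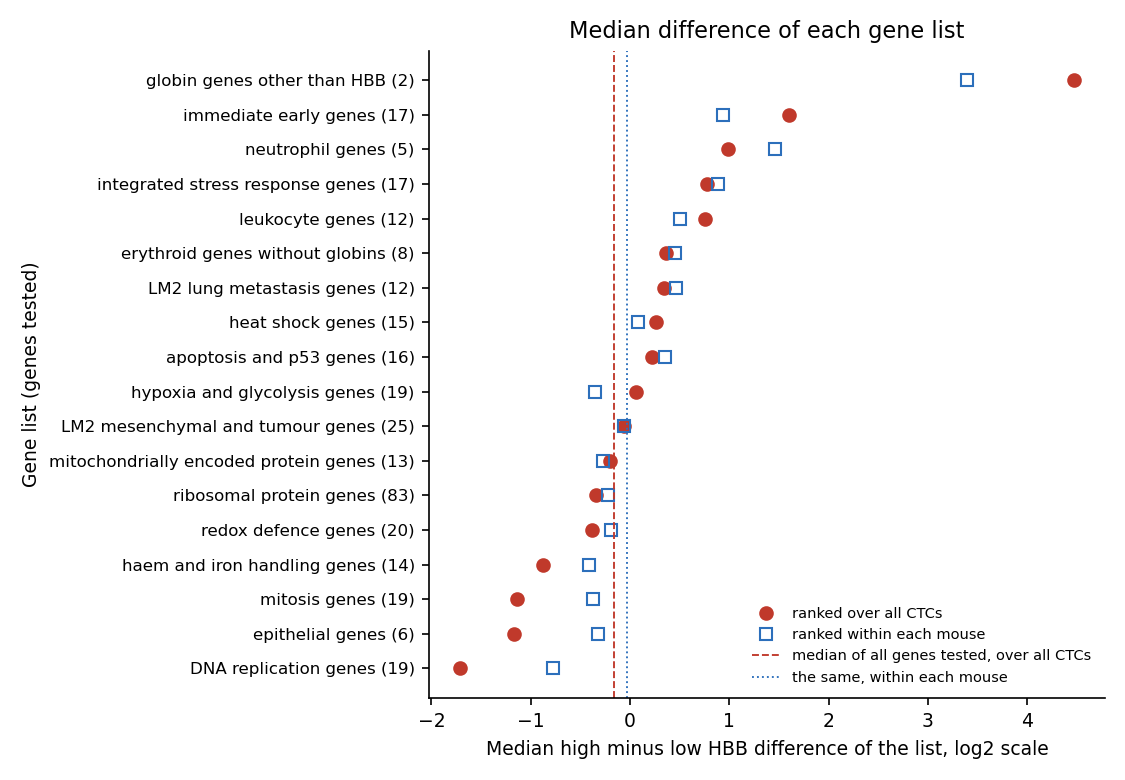
Median high minus low difference of each gene list on the log2 scale, with CTCs ranked over all mice (filled) and within each mouse (open); the number of genes tested is in parentheses and the vertical lines are the medians of all genes tested. Globins stand highest, immediate early genes next at 1.61, and DNA replication genes lowest at -1.71, and the list medians below -0.8 move toward 0 with the ranking within mice.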

How the data were processed

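Single-cell RNA-seq of 37 CTCs from 5 mice and 6 cultured LM2 cells was used. The authors aligned reads with STAR 2.7.10a to the human genome (GRCh38), kept uniquely mapped reads (partial matches accepted), collapsed reads of identical position, and the deposited values are a signal: reads per gene divided by DESeq2 (1.42.1) size factors. Strand was not used. Dividing by the smallest value of each cell gave whole reads for 100% of values (tolerance 0.001). These recovered reads, 469614 to 2041333 per CTC, served for depth, shares, thinning and edgeR. Symbols came from GENCODE 44 for 25684 of 25739 genes.

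CTCs were ranked by HBB. Cells are not replicates, so log2(value + 1) was averaged over each mouse and class (12 means weighted by number of CTCs) and fitted with limma 3.58.1 with mouse as a term, for 10549 genes with a value above 0 in at least 10 CTCs and without HBB, which has no test. Measures per CTC were compared by exact sign flips over mice. edgeR 4.0.16 on summed recovered reads called 0 genes (100 higher and 212 lower at unadjusted p under 0.05). The limma p-values describe the scatter of these 12 means left after the mouse and class terms. They rest on 5 residual degrees of freedom and 20.8 borrowed over all genes. Some of the means are single CTCs, so scatter between cells enters as well. In simulated data for this comparison (10549 genes, 200 changed), with the dispersion seen between CTCs, limma recovered 0 of the genes changed 4-fold and 35 of those changed 16-fold, with 0 and 7 false calls, and the size rule counted 1360 and 1309 unchanged genes.

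The members and gene lists were chosen with earlier results of these data known. Named genes are up to 4 of each list with the largest differences, 12 genes per direction (called genes, filled with the smallest p among genes of one sign in 3 mice), the 5 genes most like HBB, and the globins; other genes named were chosen after their values were seen. R 4.3.3 and Python 3.11.15 were used. Alternatives were pseudocounts (0.1, 8), filters, weights, classes of 9 or 18, ranking within mice, leaving out mice or libraries, scaling to the total of each CTC and thinning to 469614 reads. Some results are not reported here.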

Additional observations from a re-analysis of the deposited data

Results flagged for a closer look

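Groups of 4 to 10 CTCs were examined (single mice, or the c or s libraries of mouse 5546). Of 70 groups of values, 18 held a CTC far from the rest. A chance rate of about 1 in 20 would hold for normally distributed values only. The rule used counts and shares without a log scale, and such values can be skewed, as HBB in mouse 5545 (median 9.69, highest 2176). The number of flags therefore cannot be compared with that rate. HBB also chose the classes, so its flags are no independent result. Measures that share reads, such as HBB, HBD and the globin share, are not separate flags.

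CTC 5545-11 was the one high CTC of mouse 5545. Its HBB of 2176 lay far above the next value of 198, its HBD of 622 above 56.2, its HBA2 of 12.0 above 2.12, its ALAS2 of 26.5 above 9.29, and its share of globins other than HBB of 0.0689% above 0.00719%. Its neutrophil share was 0%. In mouse 5549, CTC 5549-6 had an HBB of 12138 (next 1305), an HBD of 3049 (next 460), an ALAS2 of 291 (next 1.34), a neutrophil share of 0.0622% (next 0.0108%) and a pseudogene share of 1.15% (next 0.398%). The blood cell genes that stood out thus differed between both CTCs: globins and ALAS2 in 5545-11, and globins, ALAS2 and neutrophil genes in 5549-6. This difference was not tested. The erythroid share without globins did not stand out in 5545-11. It was 0.0409%, between 0.0140% in CTC 5545-6 and 0.101% in CTC 5545-15 of the same mouse.

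In mouse 5542, CTC 5542-2 lay below the rest with an HBB of 660 (next 1906) and an HBD of 150.4 (next 477), CTC 5542-1 had a neutrophil share of 0.00943% (next 0.00107%), and CTC 5542-8 a platelet share of 0.0283% (next 0.00217%). In mouse 5545, CTC 5545-6 had 2313 genes detected (next 6753) and a ribosomal protein share of 27.7% (next 12.4%), and CTC 5545-12 a neutrophil share of 0.0164% (next 0.00278%) with an HBB of 13.9. Among the s libraries of mouse 5546, CTC 5546-s4 had a leukocyte share of 0.367% (next 0.130%).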

How the results depend on the processing

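With 3 mice that held both classes, the count of called genes rested on HBD. It was 0 with a pseudocount of 8, a filter of 5 of all 43 cells, no filter, unweighted means, log2 of the mean value, reads scaled to the total of each CTC, 9 against 9 CTCs, 18 against 18 CTCs, ranking within each mouse, without the c libraries of mouse 5546 and with edgeR, and 2 (HBD and KLF6) with high and low classes only; leaving out each mouse gave 0 to 1. No setting called a gene lower.

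By size, 474 higher and 1269 lower genes became 260 and 439 with a pseudocount of 8, 236 and 783 without the mouse term, 1372 and 2588 with 9 against 9 CTCs (1 mouse with both classes), 213 and 679 with 18 against 18, and 295 and 421 with the ranking within mice. Without the s libraries of mouse 5546, 726 genes were higher and 887 lower, 360 and 274 had an unadjusted p under 0.05 (154 and 431 with all CTCs), and the median of all genes was 0.05. Higher genes were 860 without the c libraries of mouse 5546, and 835 without CTC 5549-6, with 2 mice left for the sign rule in both. Leaving out each mouse gave 461 to 1103 higher and 1269 to 2607 lower. Scaling to the total of each CTC moved the median of all genes from -0.16 to -0.37.

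Of 129 values of measures under alternatives, 11 changed sign. The mitochondrial difference was -0.691 points with the ranking within mice and -0.255 without the s libraries. The erythroid difference without globins was -0.00910 with 9 against 9 CTCs and -0.0124 without CTC 5549-6, and -0.0124 to 0.0369 over the mice left out. The neutrophil difference was -0.00299 with 9 against 9 CTCs, the platelet difference 0.00223 with 18 against 18, and the leukocyte difference -0.0260 with 9 against 9, -0.0102 with the ranking within mice and -0.00429 without CTC 5549-6, and -0.00429 to 0.0218 over the mice left out. The cause was not tested. The exclusion of CTC 5545-6 or 5549-6, the pseudogene share and the correlation threshold were chosen after seeing the data. Of 95 named genes, 7 changed sign with 9 against 9 CTCs and 2 (FOSL1, HSPE1) with the ranking within mice.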
